A study of Mus musculus with 8 samples.

Results

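Heat shock and unfolded protein response genes were followed in mouse lung after surgery by name, as a fixed set of 34 genes. The set was chosen with earlier results of these data known. A gene was read from a probe set that the array annotation ties to its symbol alone, taking the brightest on average over the 8 arrays where there were several, and 33 of the 34 genes were found in this way among 18193 genes of the series. Hsp90ab1, which encodes the constitutive cytosolic Hsp90, had no such probe set and has no value here. The 33 genes comprised 17 for protein folding and degradation in the endoplasmic reticulum (ER), 5 of the ATF4 branch of the unfolded protein response and 11 of the 12 listed heat shock genes. The PNY mice were female C57BL/6 of 10 to 12 weeks that lost the left lung by pneumonectomy, and the SHAM mice were females of the same strain and age whose left chest was opened and closed again with the lung in place. All of them were anesthetized with ketamine and xylazine, ventilated, and given ampicillin and buprenorphine, and no unoperated lung was measured. At 6 hours and at 1, 3 and 7 days lung tissue of 8 mice was pooled for a single PNY array and a single SHAM array, which gives 4 arrays in each group. An array therefore shows the mean of its pool, and the p-values below rest on the spread between pools and not between mice. Where time points are taken as replicates, that spread is between pools of different times. Levels are log2 expression values, in which a step of 1 is a doubling of the signal. The defining markers of lung averaged between 12.41 and 12.67 on every array, so the labelled tissue was present on all of them.

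The unfolded protein response is the reply of a cell to proteins that are not folded in the ER. Its sensors Ire1 and Atf6 raise the chaperones, disulfide isomerases and degradation factors of that compartment, and its sensor Perk slows translation while favouring the factor ATF4, which raises genes of amino acid supply, stress and cell death. ATF4 is also raised by amino acid shortage through another kinase, Gcn2. The heat shock response is a separate program of the cytosol and nucleus, in which the factor Hsf1 raises chaperones of the Hsp70, Hsp90, Hsp110 and small heat shock protein families. In the lung the ER chaperones are high in cells that secrete much protein, such as alveolar type II cells, fibroblasts and plasma cells. In bulk tissue of this kind fewer cells of a type and less RNA per cell cannot be told apart.

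The 3 groups of genes are known to be read from different short DNA elements, and the promoters of those on which the results turn are shown for that reason. Windows of 250 bases before to 50 bases after the transcription start were available for 29 of the 33 genes (RefSeq, build GRCm38.p6). Manf, Hyou1, Hspa8 and Hsp90aa1 had none and were not searched. The ER stress element was searched as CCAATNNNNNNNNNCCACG, the amino acid response element, bound by ATF4, as TGATGNAA and the heat shock element as GAANNTTCNNGAA, each on both strands, and no printed match of one element overlaps another. Capitals mark the match, as its complement where the element lies on the strand opposite to the gene. Only the exact strings above were searched, and only within these windows. A gene without a match may still hold a differing form of the element, or the element outside the window. The ER stress element was present in 7 genes, all of the ER group (Calr, Canx, Creld2, Dnajc3, Hsp90b1, Hspa5 and Pdia6), and in 0.119% of all 32851 promoter windows. These are the windows of Hspa5, Pdia6, Creld2 and Calr.
Hspa5, chr2:34771995-34772073, plus strand: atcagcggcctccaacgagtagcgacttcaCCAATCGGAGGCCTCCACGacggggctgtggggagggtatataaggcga
Pdia6, chr12:17266461-17266539, plus strand: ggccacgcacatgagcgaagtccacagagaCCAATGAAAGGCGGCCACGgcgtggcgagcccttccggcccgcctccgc
Creld2, chr15:88819490-88819568, plus strand: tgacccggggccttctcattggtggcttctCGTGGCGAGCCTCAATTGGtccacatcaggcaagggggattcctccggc
Calr, chr8:84847045-84847123, minus strand: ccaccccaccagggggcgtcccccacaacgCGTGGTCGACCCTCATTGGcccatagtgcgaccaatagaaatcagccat

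The amino acid response element was present in Asns, Chac1, Herpud1 and Trib3, that is in 3 of the 5 ATF4 branch genes and 1 gene of the ER group, and in 3.97% of all windows. In Trib3 it lies 14 bases after the start, and only the match is shown.
Asns, chr6:7693210-7693262, minus strand: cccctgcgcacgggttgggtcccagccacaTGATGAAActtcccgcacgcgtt
Chac1, chr2:119351019-119351086, plus strand: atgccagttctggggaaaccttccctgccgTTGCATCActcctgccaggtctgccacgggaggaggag
Herpud1, chr8:94386287-94386354, plus strand: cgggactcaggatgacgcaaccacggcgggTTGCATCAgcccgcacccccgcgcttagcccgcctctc
Trib3, chr2:152344039-152344046, minus strand: TTACATCA

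The heat shock element in the form searched was present in Hspe1, Hspd1 and Hsph1, 3 of the 9 heat shock genes with a window. It was present in 0.603% of all windows. Hspe1 and Hspd1, the small and the large subunit of the mitochondrial chaperonin, are transcribed away from each other and share the same element, which is shown on the strand of Hspe1 and holds 2 overlapping matches, 1 on each strand. In Hsph1 the match lies after the start.
Hspe1, chr1:55088029-55088106, plus strand: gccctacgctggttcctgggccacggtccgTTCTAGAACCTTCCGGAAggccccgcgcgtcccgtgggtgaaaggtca

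Nearly all of these genes were well expressed. Mean levels over the 8 arrays ranged between 6.99 for Chac1 and 12.87 for Hspa8, all above the median of 5.92 over all probe sets. The level of Hspa1b, the inducible Hsp70, moved by 2.78 over the 8 arrays, against 1.77 for the Hsp110 protein Hsph1, 1.64 for Sdf2l1, an ER protein that works with the J protein Dnajb11, and 1.36 for Herpud1, an organizer of ER-associated degradation. The ER lectin chaperone Canx moved least, by 0.17.

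**Figure D1:**
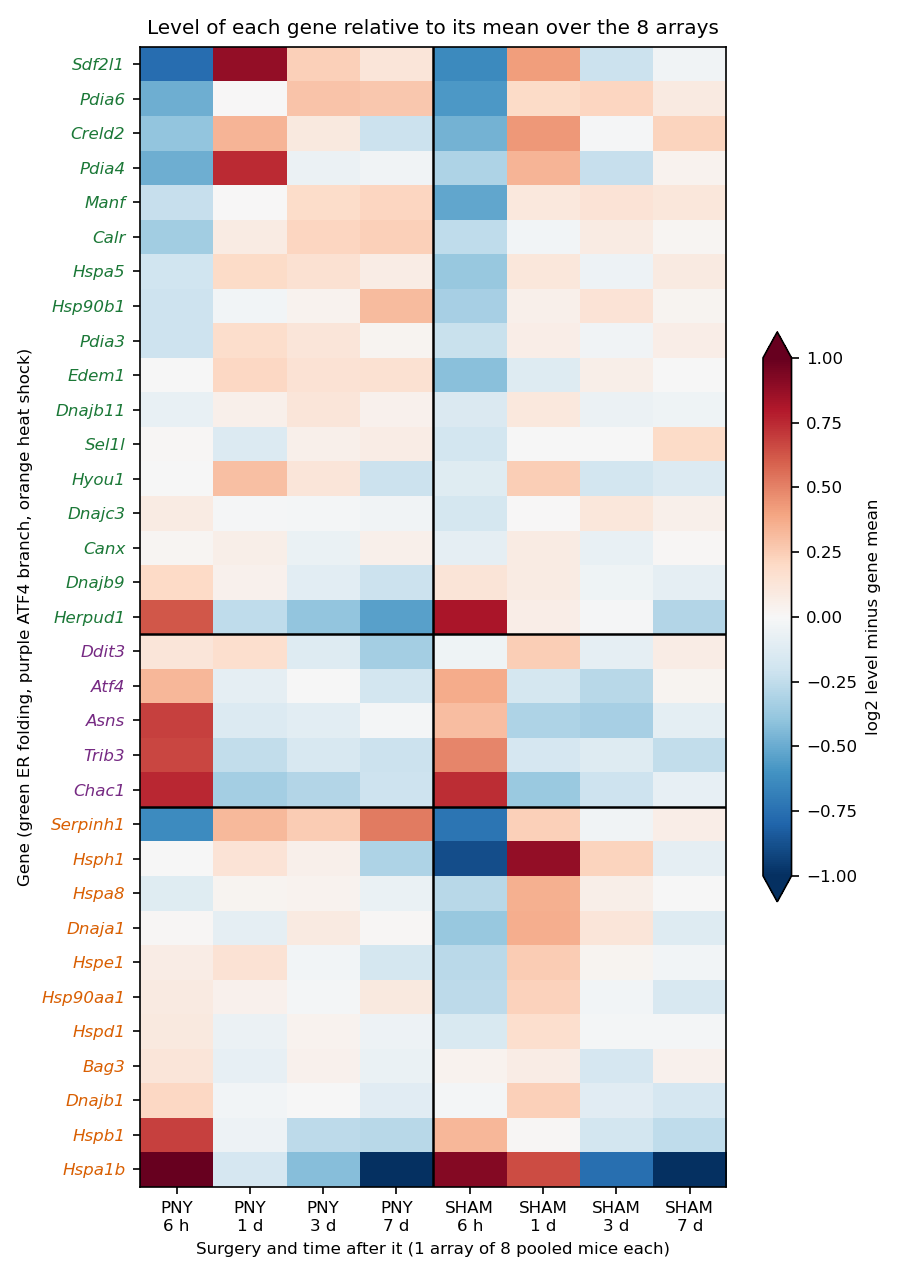
The log2 level of each of the 33 genes minus its own mean over the 8 arrays, with genes in rows by group and the PNY arrays left of the SHAM arrays in the order of time. The columns of 6 hours stand apart from the later ones, most ER folding genes being blue and most ATF4 branch genes red in both surgeries.

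The first comparison asked how the genes changed with time after either operation. The mean of the arrays of 1, 3 and 7 days was set against the arrays of 6 hours in limma with surgery as a term, with 6 arrays against 2, and p-values were adjusted over all 45037 probe sets (Benjamini-Hochberg). Each time point had its own term, so the error came from how PNY minus SHAM varied between time points. The spread between 1, 3 and 7 days was not part of it. At an adjusted p under 0.05, 15 of the 33 genes changed, 8 upward and 7 downward. Over all 18193 genes 7.72% passed upward and 3.5% downward, 11.2% in all, and among the 12151 genes above the median level the shares were 10.6% and 4.28%. The directions followed the groups. In the ER group 7 genes rose and 1 fell, in the ATF4 branch none rose and 4 fell, and among the heat shock genes 1 rose and 2 fell. The median difference between later and 6 hours was 0.28 for the ER group, -0.67 for the ATF4 branch and 0.12 for the heat shock genes, beside 0.07 for all genes above the median level.

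The strongest rise among ER folding genes was that of Sdf2l1. Its levels at 6 hours and 1, 3 and 7 days were 7.42, 9.06, 8.42 and 8.30 in PNY lungs, against 7.54, 8.60, 7.97 and 8.15 in SHAM lungs. All 6 later arrays lay above both arrays of 6 hours, and within each surgery the array of 1 day was the highest. The later mean was 8.42 ± 0.38 (SD, n = 6) and the mean of 6 hours 7.48 (n = 2), a difference of 0.93 with a 95% confidence interval of 0.63 to 1.24 and an adjusted p of 0.0073 in limma. Pdia6, a protein disulfide isomerase with the ER stress element shown above, had 10.53, 11.02, 11.30 and 11.29 in PNY lungs, against 10.44, 11.21, 11.23 and 11.11 in SHAM lungs. Its difference between later and 6 hours was 0.71 (0.46 to 0.95, limma adjusted p 0.0084), and here the groups of arrays did not overlap either.

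The master chaperone Hspa5, also called BiP, rose by less. In PNY lungs it had 11.89, 12.28, 12.25 and 12.16 at the 4 time points, against 11.71, 12.21, 12.04 and 12.18 in SHAM lungs. The arrays of 6 hours were the lowest of each surgery, and the difference was 0.39 (0.16 to 0.61), with an adjusted p of 0.0492 in limma that lies just within the threshold. The disulfide isomerase Pdia4 had 7.90, 9.13, 8.33 and 8.35 in PNY lungs, against 8.08, 8.73, 8.15 and 8.42 in SHAM lungs, and like Sdf2l1 it was highest at 1 day in both. The other genes of the group that rose were Creld2 and Manf, proteins of the ER that are secreted under ER stress (differences 0.57 and 0.50, adjusted p 0.0318 and 0.028), and the lectin chaperone Calr (0.40, adjusted p 0.049), all in limma. Hsp90b1, the Hsp90 of the ER, the isomerase Pdia3 and Edem1, which passes misfolded glycoproteins on for degradation, had differences of 0.36, 0.28 and 0.28 that did not pass. The J proteins Dnajb11, Dnajc3 and Dnajb9, which bring clients to Hspa5, its exchange factor Hyou1, the degradation adaptor Sel1l and Canx did not pass either, with differences between -0.22 and 0.15. Both arrays of 6 hours lay below all 6 later ones in 10 of the 17 ER genes, beside 25.4% of all genes above the median level. Of the 7 genes with the ER stress element, 4 rose and 3 (Canx, Dnajc3 and Hsp90b1) did not pass.

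Herpud1 went the other way from the rest of the group. Its level was 11.71, 10.84, 10.70 and 10.54 in PNY lungs, against 11.91, 11.16, 11.08 and 10.80 in SHAM lungs. Each surgery had its highest value at 6 hours, and the level at 7 days was the lowest of the 4. The difference was -0.96 (-1.17 to -0.74, limma adjusted p 0.0020), and a further probe set of the gene gave -0.95. Among the 15 ER genes with a promoter window, Herpud1 was the only 1 with a match to the amino acid response element. The part of that element in its course was not tested.

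In the ATF4 branch 4 of the 5 genes fell after 6 hours. Chac1, an enzyme that breaks down glutathione, had 7.75, 6.65, 6.70 and 6.78 in PNY lungs, against 7.73, 6.62, 6.78 and 6.91 in SHAM lungs. The arrays of 6 hours were nearly equal between the surgeries and stood well above every later array. The difference was -0.998 (-1.21 to -0.78, limma adjusted p 0.0018). Trib3, a pseudokinase that restrains ATF4 itself, had 7.86, 6.94, 7.02 and 6.97 in PNY lungs, against 7.68, 7.02, 7.06 and 6.94 in SHAM lungs. The later arrays of Trib3 averaged 6.99 ± 0.05 (SD, n = 6) and those of 6 hours 7.77 (n = 2), a difference of -0.77 with a standard error of 0.10 (limma adjusted p 0.0046). Asns, the enzyme that makes asparagine, had 9.35, 8.53, 8.56 and 8.64 in PNY lungs, against 8.98, 8.36, 8.34 and 8.57 in SHAM lungs, a difference of -0.67 (adjusted p 0.0086). Atf4 had 11.15, 10.73, 10.82 and 10.64 in PNY lungs, against 11.19, 10.64, 10.54 and 10.84 in SHAM lungs, a difference of -0.47 (adjusted p 0.0452), and its 2 further probe sets, with -0.29 and -0.15, did not pass. Both arrays of 6 hours lay above all later ones in these 4 genes, beside 11.5% of all genes above the median level. Ddit3, the cell death factor also called CHOP, did not share the pattern. Its levels were 8.60, 8.65, 8.35 and 8.13 in PNY lungs, against 8.43, 8.72, 8.38 and 8.55 in SHAM lungs, with a difference of -0.05 (-0.34 to 0.24). All 4 genes with a match to the amino acid response element, Herpud1 included, fell. Of the ATF4 branch genes without a match in the window, Atf4 fell as well and Ddit3 did not pass. Bases outside the window were not searched, so the lack of a match does not show that either gene lacks the element. The part of the element was not tested.

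**Figure D2:**
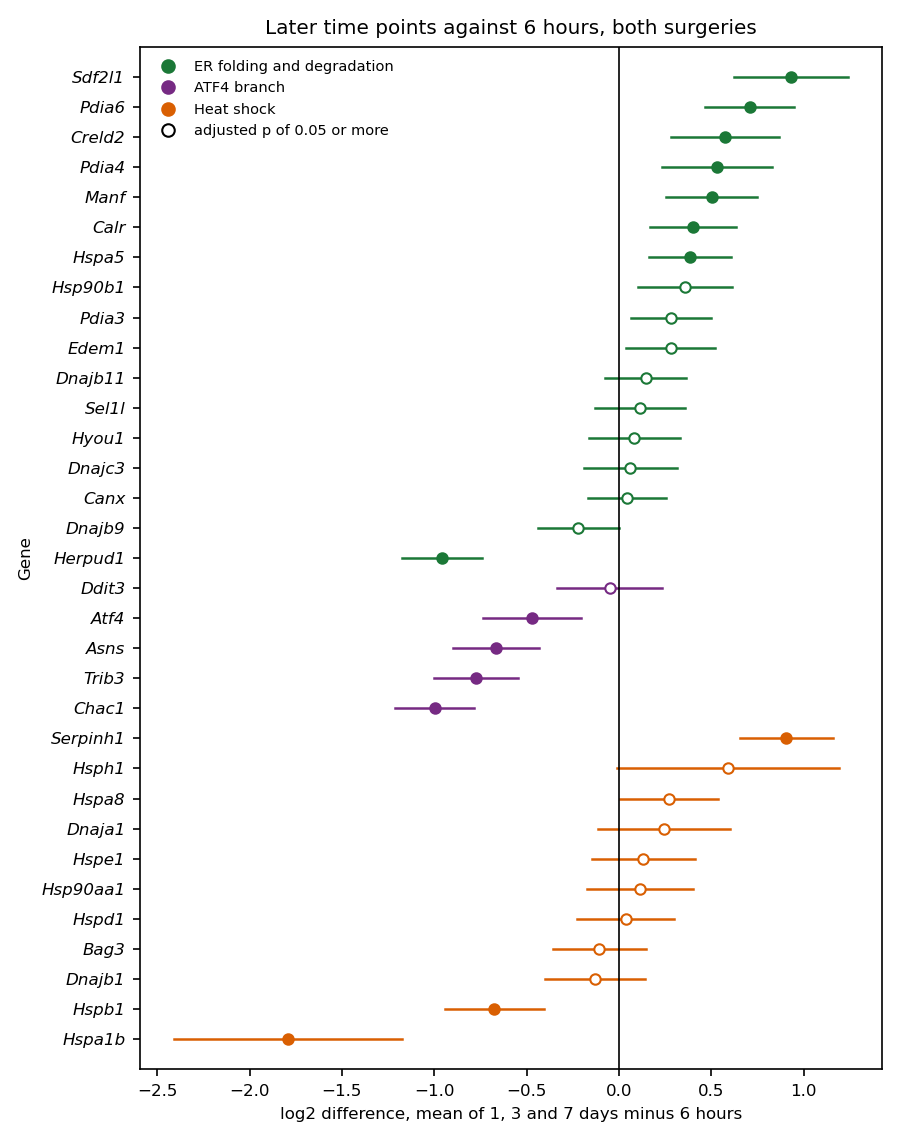
Difference between the mean of 1, 3 and 7 days and 6 hours for the 33 genes on the log2 scale, with points for the limma estimate over both surgeries, bars for its 95% confidence interval and filled points for an adjusted p under 0.05. The ER folding genes lie mostly right of 0, from 0.93 for Sdf2l1, with Herpud1 far left at -0.96, the ATF4 branch lies left of 0, and the heat shock genes range between -1.79 for Hspa1b and 0.91 for Serpinh1.

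The heat shock genes split in this comparison. Hspa1b fell most of all 33 genes, with 11.82, 9.88, 9.63 and 9.05 in PNY lungs, against 10.97, 10.70, 9.29 and 9.04 in SHAM lungs. At 7 days the surgeries had nearly the same level, and the difference between later and 6 hours was -1.79 (-2.41 to -1.18, limma adjusted p 0.0085), a fold change of -3.47. Hspa1a, its near-identical neighbour, gave a fold change of -2.84, and because probes may read both transcripts the 2 cannot be counted apart. Hspb1, a small heat shock protein, had 13.08, 12.35, 12.14 and 12.12 in PNY lungs, against 12.73, 12.41, 12.22 and 12.15 in SHAM lungs. Its difference was -0.67 (-0.94 to -0.41, limma adjusted p 0.0136), with both arrays of 6 hours above every later one. Serpinh1, which is heat inducible but works in the ER as the chaperone of collagen, rose. It had 10.86, 11.82, 11.74 and 12.01 in PNY lungs, against 10.76, 11.73, 11.46 and 11.55 in SHAM lungs, and a difference of 0.91 (0.66 to 1.16, limma adjusted p 0.0038). Of 13 measured genes of fibroblasts and collagen 5 rose and 2 fell after 6 hours, and their mean level was 9.46, 9.48, 9.68 and 9.86 in PNY lungs, against 9.21, 9.44, 9.28 and 9.44 in SHAM lungs; the part of these cells in the rise of Serpinh1 was not tested. The remaining 8 heat shock genes, the constitutive Hsp70 Hspa8, Hsph1, the inducible Hsp90aa1, the J proteins Dnaja1 and Dnajb1, the chaperonin subunits Hspe1 and Hspd1 and the Hsp70 cochaperone Bag3, did not pass, with differences between -0.13 and 0.59. The 3 genes with a match to the heat shock element were among them. The lack of a match in Hspa1b and Hspb1 does not show that they lack the element.

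These calls leaned on the 2 arrays of 6 hours. Of 15 further probe sets of the called genes 13 had the same sign and 8 passed as well. The opposite sign was found in a probe set of Hspa5 (-0.07) and in one of Pdia4 (-0.10), neither of which passed. Another probe set of Hspa5 passed with 0.52. Without the PNY array of 6 hours only Chac1 and Herpud1 passed, with adjusted p of 0.0443 and 0.0473 in limma, and without the SHAM array of 6 hours 7 genes passed. Hspa5 and Calr lost their call when any single array was left out. A test for any difference between the 4 time points called 8 of the 33 genes (Herpud1, Chac1, Serpinh1, Sdf2l1, Trib3, Hspa1b, Asns and Pdia6), beside 4.04% of all genes. Other measures moved between the same arrays. All 9 measured genes of the circadian clock passed, 7 lower and 2 higher later, and the neutrophil list averaged 8.33 to 9.30 on the later arrays, against 9.80 and 9.50 on the PNY and SHAM arrays of 6 hours, with 1 of its 7 genes called, lower later. The part of clock time and of neutrophils in these differences was not tested, nor was that of surgery itself, for which an unoperated lung would be needed.

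**Figure D3:**
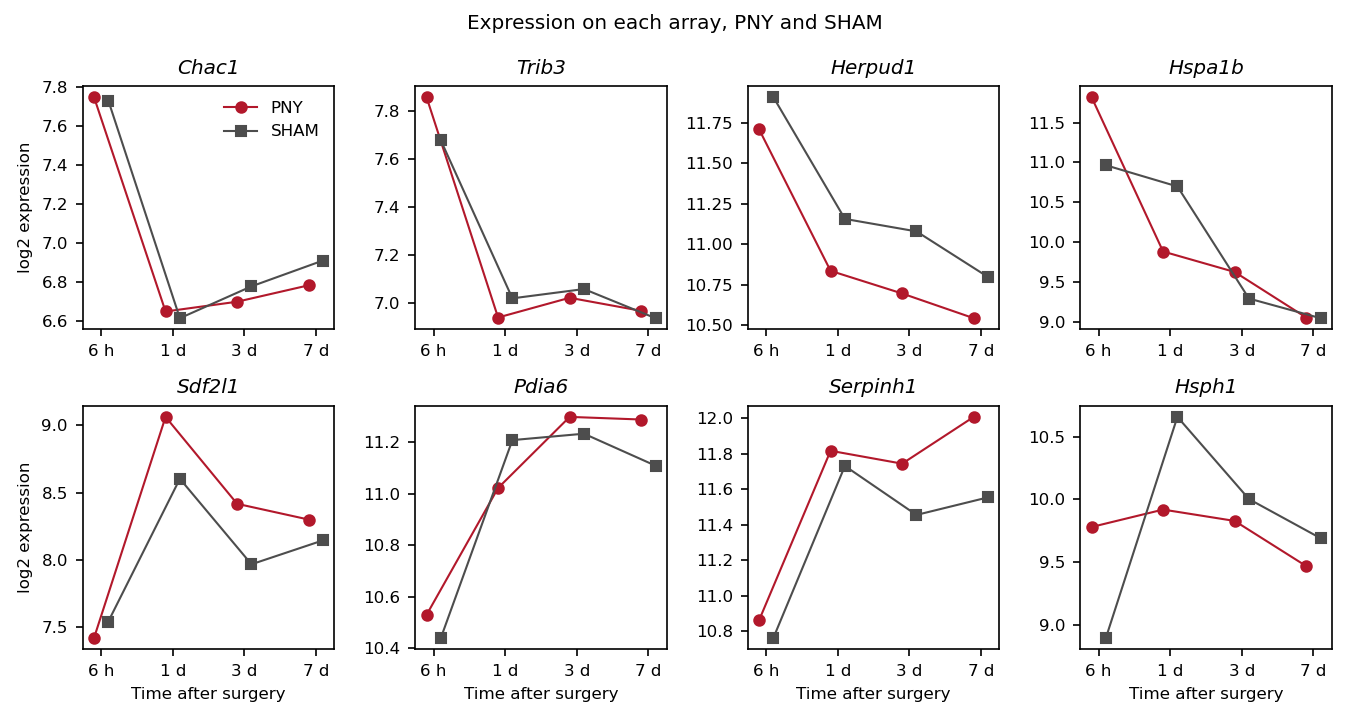
Log2 expression of 8 genes on every array against time after surgery, PNY as circles and SHAM as squares, each panel with its own axis. Chac1, Trib3, Herpud1 and Hspa1b are highest at 6 hours in both surgeries, Sdf2l1, Pdia6 and Serpinh1 are lowest there, and Hsph1 is higher in PNY at 6 hours and higher in SHAM at 1 day.

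The second comparison asked whether removal of the lung changed these genes beyond the sham operation. With the 4 time points as replicates, none of the 33 genes passed the rank product test (P under 0.001 with at least a 1.5-fold difference), beside 0.506% of all genes higher and 0.0605% lower in PNY. In limma none passed either, as was the case for every gene measured (0% of all genes), and at an unadjusted p under 0.05 there were 0 of the 33, beside 2.17% of all genes. With the time point as a block, none passed after adjustment, and 4 had an unadjusted p under 0.05 (Herpud1, Edem1, Serpinh1 and Asns), beside 5.9% of all genes. For 25 of the 33 genes the 95% confidence interval of PNY minus SHAM lay within a fold change of 1.5 either way. In none of the 33 did the PNY and SHAM arrays keep apart, beside 0.857% of all genes with every PNY array above every SHAM array and 0.726% below. The interval reached widest for Hspa1b, 1.34 to each side of its mean difference of 0.10.

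Some genes kept 1 direction at all time points. Edem1 had 9.25, 9.46, 9.40 and 9.41 in PNY lungs, against 8.84, 9.12, 9.31 and 9.25 in SHAM lungs. All 4 PNY arrays were above the SHAM array of their own time, although the PNY array of 6 hours lay below the SHAM array of 3 days, and the mean difference was 0.25 ± 0.16 (SD of the 4 differences; exact permutation test, two-sided, p 0.057, where the smallest p the design allows is 0.029). Asns and Serpinh1 were likewise higher in PNY at each time, by 0.21 ± 0.13 and 0.23 ± 0.17 on average. Herpud1 was lower in PNY at each time, by -0.20, -0.32, -0.38 and -0.25. These are 3 genes higher and 1 lower at all 4 times among 33, where 9.36% and 5.99% of all genes behaved so. Of the 13 measured genes of fibroblasts and collagen 8 were higher in PNY at all 4 times and 0 lower. The part of these cells in the difference of Serpinh1 was not tested. Whether the difference between PNY and SHAM itself changed between the early (6 hours and 1 day) and late (3 and 7 days) arrays was tested as an interaction in limma, and none of the 33 genes passed, as none did over all genes (0%). At an unadjusted p under 0.05 there were 0 of the 33, beside 2.46% of all genes. The early arrays were averaged here, so differences of opposite sign at 6 hours and 1 day largely cancel. Hspa1b had 0.86 and -0.82 at these times and Hsph1 0.89 and -0.74, a pattern that this test could not detect.

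At single time points, where 1 array stands against 1 and no test is possible, the genes past 1.5-fold were heat shock genes. At 6 hours Hspa1b and Hsph1 were past 1.5-fold higher in PNY, with log2 differences of 0.86 and 0.89, beside 0.682% of all genes. At 1 day the same pair was past 1.5-fold lower in PNY, with -0.82 and -0.74, beside 1.09% of all genes, while none of the 33 genes was past 1.5-fold in the other direction at these times, beside 1.04% of all genes lower at 6 hours and 1.88% higher at 1 day. None was past 1.5-fold at 3 days, beside 1.14% of all genes higher and 0.511% lower, nor at 7 days, beside 1.98% higher and 1.48% lower. Hsph1, a partner of Hsp70 that renews its nucleotide, had 9.78, 9.92, 9.83 and 9.47 in PNY lungs, against 8.89, 10.66, 10.00 and 9.69 in SHAM lungs. The PNY series was nearly level, and it was the SHAM array that was lowest at 6 hours and highest at 1 day. For Hspa1b, whose levels are given above, PNY lay above SHAM at 6 hours and below it at 1 day, with SHAM at 10.97 and 10.70 on these arrays. Further probe sets of these genes had the same signs, 0.96 and 0.95 at 6 hours and -0.99 and -0.94 at 1 day for Hspa1b, and 0.89 and -0.82 for Hsph1.

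The smaller differences of the other heat shock genes had the same sign. All 11 were higher in PNY at 6 hours, beside 62.5% of the genes above the median level, and 10 of the 11 were lower in PNY at 1 day, Serpinh1 being the exception, although 57.6% of the genes above the median level were higher in PNY then. Both held for those 10 genes, beside 26.6% of the genes above the median level. The signs come from the brightest probe set of each gene. A further probe set of Hspe1 had 0.08 at 1 day, where the brightest had -0.11. Further probe sets of Hspa8 and Hsp90aa1 with the opposite sign at 1 day lay below the median level. Dnaja1 had 11.35, 11.25, 11.43 and 11.35 in PNY lungs, against 10.96, 11.70, 11.46 and 11.21 in SHAM lungs. Hspa8 had 12.75, 12.90, 12.91 and 12.81 in PNY lungs, against 12.59, 13.22, 12.93 and 12.87 in SHAM lungs. In both genes the SHAM array of 6 hours was the lowest of the 8 and that of 1 day the highest. The median difference of the group was 0.34 for the arrays of 6 hours, -0.23 for those of 1 day, and 0.01 and -0.03 for those of 3 and 7 days. For the ER group it stayed between -0.02 and 0.09 and for the ATF4 branch between -0.13 and 0.17. The change of sign from 6 hours to 1 day was not confined to the heat shock genes. It was also found in 9 of the 17 ER genes and 2 of the 5 genes of the ATF4 branch. Outside the set it was found in 20 of 37 other heat shock genes, 11 of 45 other ER genes and 5 of 9 genes of striated muscle. Some features of single arrays go with these values. The upper quartile over all probe sets was 8.04 on the SHAM array of 6 hours and 8.09 to 8.18 on the others, and the thymocyte list averaged 8.18 on the PNY array of 1 day and 5.25 to 5.83 on the others. Their part in the result was not tested.

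**Figure D4:**
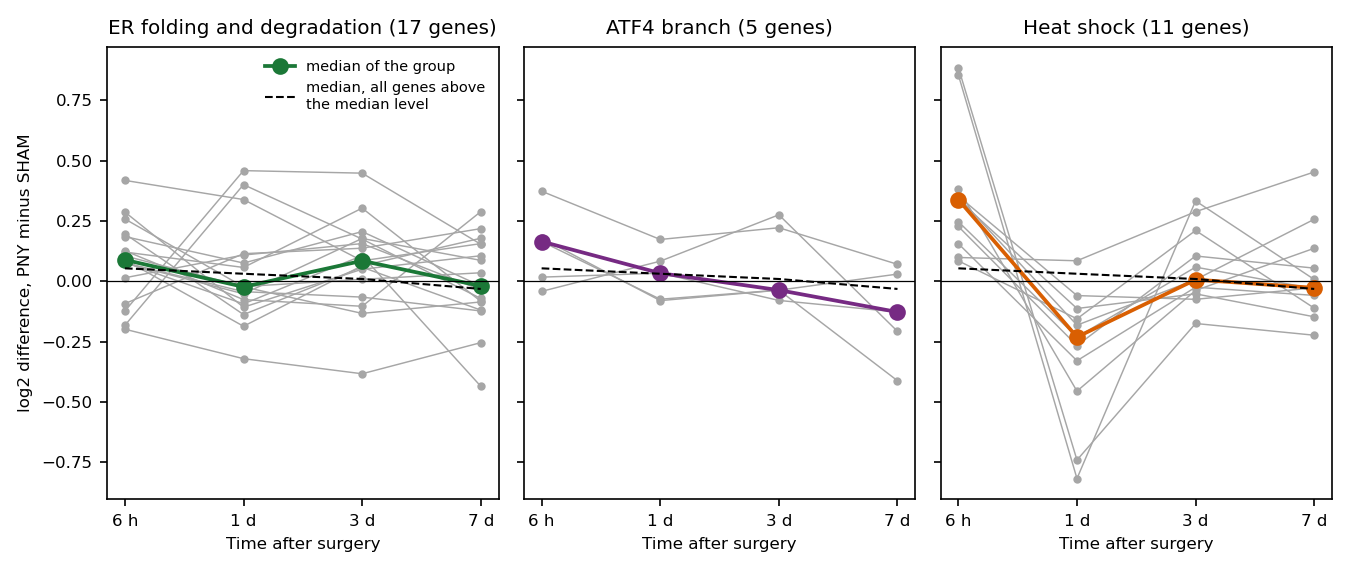
PNY minus SHAM on the log2 scale at each time point, with a thin grey line for each gene, a thick line for the median of its group and a dashed line for the median of all genes above the median level. The heat shock median runs through 0.34, -0.23, 0.01 and -0.03, and the medians of the other groups keep within 0.17 of 0.

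Genes of the same pathways outside the set were counted from lists of general knowledge. Of 35 other ATF4 targets 11 fell and 1 rose after 6 hours, where 4.28% of the genes above the median level fell and 10.6% rose. The amino acid transporter Slc7a5 had a fold change of -2.70, the growth inhibitor Ddit4 -2.43, the cystine transporter Slc7a11, below the median level on every array, -2.35, the stress protein Sesn2 -1.83, the mitochondrial folate enzyme Mthfd2 -1.64 and Slc3a2, the partner chain of Slc7a5, -1.52. Slc7a5 had 9.08, 7.69, 7.69 and 7.66 in PNY lungs, against 8.99, 7.34, 7.61 and 7.65 in SHAM lungs. Like Chac1 it fell between 6 hours and 1 day in both surgeries, but by more. Psph, of serine synthesis, rose with a fold change of 1.34. Psat1, of the same pathway, was the gene of these lists that passed between the surgeries by rank products, with 8.04, 8.11, 8.30 and 8.39 in PNY lungs, against 7.64, 7.38, 7.74 and 7.53 in SHAM lungs and a fold change of 1.56. Its groups of arrays did not overlap.

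Of 45 other ER folding and degradation genes 5 rose and 2 fell after 6 hours, counts near the 10.6% upward and 4.28% downward among all genes above the median level. The disulfide isomerase Pdia5 rose with a fold change of 1.90, and the prolyl isomerase Fkbp14 fell with a fold change of -2.01. The other genes that rose were the prolyl isomerase Fkbp2, Mydgf, Ostc, a subunit of the enzyme that attaches glycans, and Uggt1, the sensor of misfolded glycoproteins, with fold changes between 1.33 and 1.41, and Ufd1, which helps to extract proteins for degradation, fell with -1.34. Of 37 other heat shock genes 5 rose and 3 fell, beside the same shares of 10.6% and 4.28%, so the upward count too was near that of genes at large. Besides Hspa1a, the heme oxygenase Hmox1 and the small heat shock protein Hspb8 fell with fold changes of -2.46 and -1.89, while Hspb2, Fkbp4, Hspa2, Chordc1 and Stip1 rose with fold changes between 1.41 and 1.64. Of 14 measured regulators, Hsf1 being without a probe set of its own, none passed. Differences between later and 6 hours were -0.37 for Ern1, which encodes Ire1, -0.32 for Atf6, 0.38 for Atf6b, 0.06 for Xbp1, the factor that Ire1 activates by splicing, and 0.12 for Eif2ak3, which encodes Perk. They were -0.36 and -0.34 for Ppp1r15a and Ppp1r15b, which restore translation, 0.41 and 0.19 for the ER-bound factors Creb3l1 and Creb3l2, and 0.16 and -0.05 for Mbtps1 and Mbtps2, the proteases that release Atf6. The kinases Eif2ak2 and Eif2ak4 (Gcn2) had 0.07 and 0.03 and the heat shock factor Hsf2, which lay below the median level, 0.12. The arrays read total transcript, so splicing of Xbp1, cleavage of Atf6 and translation of Atf4 were not seen.

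Plasma cells, rich in ER chaperones, were read beside the ER group by 6 markers. None passed in either comparison, and their mean level was 6.83, 7.30, 6.89 and 6.88 in PNY lungs, against 6.85, 6.70, 7.39 and 7.58 in SHAM lungs, highest at 1 day among the PNY arrays and at 7 days among the SHAM arrays, while Sdf2l1 and Pdia4 were highest at 1 day in both. All 6 markers were higher in PNY at 1 day, as were 7 of the 17 ER genes, Sdf2l1 by 0.46 and Pdia4 by 0.40. At 7 days all 6 markers were lower in PNY, as were 9 of the 17 ER genes. The part of plasma cells in the levels of the ER genes was not tested. The defining markers of alveolar type II cells averaged between 13.04 and 13.20 on all arrays, with none of 7 called. The brightest of them had a mean level of 14.68, near the highest of all genes, 14.77. Their differences between later and 6 hours ran between -0.05 and 0.31, the largest being that of Abca3. The part of these cells in the levels of the ER genes was not tested. The housekeeping list had none of 8 called.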

How the data were processed

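Lung RNA, pooled from 8 mice per array, was measured on 8 Affymetrix mouse arrays, whose small number limits the precision. The authors made the deposited log2 values with RMA (background correction, quantile normalization and summarization; version not given in the sources used here), which levels differences in total RNA between arrays. The 64 control probe sets of 45101 were left out and 45037 tested with no filter on low values. Of these 34945 carry 1 gene symbol, 932 several and 9160 none, and genes were named from the first only. Replicate arrays of a group are different time points. Rank products were coded in Python 3.11.15 (numpy 2.4.6, pandas 2.3.3) over the 16 PNY and SHAM pairs with 1000 permutations, 100 in the alternatives. Contrasts were fitted with limma 3.58.1 in R 4.3.3. The exact permutation test, two-sided, ran over the 70 splits of the arrays (scipy 1.17.1). Figures were drawn with matplotlib 3.10.9. Both fits were run first on simulated data with independent noise and large planted changes. Such a run checks the code and does not show whether small differences between the surgeries would be found.

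The deviations of PNY and SHAM arrays of the same time point from their group means correlated with r of 0.605, 0.357, 0.302 and 0.295 at 6 hours and 1, 3 and 7 days, so the time point given by the labels pairs the arrays, and it was used as a block in an alternative. Other alternatives were median centring, a further quantile normalization, a filter at the median level, other probe sets, another variance prior, other thresholds and leaving out arrays or time points. Named were all members, the regulators, and of other pathway lists genes past a threshold, at most the 6 with the largest fold in each list; Psph, Psat1, Uggt1, Chordc1 and Stip1, which complete small counts, were added after their values were seen. The members and lists were chosen with earlier results of these data known. Probe-level values were not used.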

Additional observations from a re-analysis of the deposited data

Results flagged for a closer look

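In 8 of 66 sets of 4 arrays (33 genes in either surgery) a single array stood apart from the other 3, with a gap to its nearest neighbour that took most of the range. A chance rate of about 1 in 20 would hold for replicates, whereas the arrays of a set are different time points. Of the 8 sets, 6 had the array of 6 hours apart, in genes already called above for later against 6 hours. At 6 hours these were Trib3 with a gap of 0.910 of the range in PNY and 0.836 in SHAM, Chac1 with 0.878 and Asns with 0.866 in PNY, all with the array of 6 hours highest, and Pdia6 with 0.843 and Manf with 0.962 in SHAM, both with it lowest. The other sets were Hyou1 in SHAM, with the array of 1 day highest (0.859), and Bag3, a cochaperone of Hsp70, in SHAM, with the array of 3 days lowest (0.853). The SHAM arrays of Bag3 had 10.02, 10.06, 9.82 and 10.03 in the order of time.

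The difference between PNY and SHAM ran in opposite directions at 6 hours and at 1 day, past 1.5-fold each time, in 2 genes. The 2 differences lay 1.67 apart for Hspa1b and 1.63 apart for Hsph1 on the log2 scale. Whether they differ was not tested, since each rests on 1 array of either surgery.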

How the results depend on the processing

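None of the 33 genes passed between PNY and SHAM under any alternative to the rank product or limma fits, leaving out arrays and the time point as a replicate block included (0 with the block in each fit). Later against 6 hours, 15 genes passed; leaving out 1 array gave 2 to 11, leaving out both arrays of 3 days 9, and the other alternatives 10 to 17. Of the 15, 12 kept their call under every alternative with all 8 arrays, and Chac1 and Herpud1 in all 16 settings. The test over the 4 time points called 8, 0 to 7 with 1 array left out and 16 with a trended and robust variance prior. At 2-fold in place of 1.5-fold, 0 genes passed at 6 hours and 0 at 1 day.

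Signs of later minus 6 hours turned 14 times, in 11 genes that had not passed. With 1 array left out the lowest and highest values were -0.0047 and 0.093 for Canx, -0.11 and 0.23 for Dnajc3, -0.018 and 0.25 for Sel1l, -0.22 and 0.12 for Ddit3, -0.041 and 1.22 for Hsph1, -0.045 and 0.28 for Hsp90aa1, -0.26 and 0.0024 for Dnajb1, -0.0072 and 0.50 for Dnaja1, -0.089 and 0.35 for Hspe1 and -0.12 and 0.19 for Hspd1, each reached without an array of 6 hours. Hyou1 had -0.042 without both arrays of 1 day and Ddit3 0.011 without both of 7 days. The cause was not tested. With 1 pooled array per surgery and time, the spread between mice is unknown.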
